A study of Rattus norvegicus with 8 samples.

Results

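The E proteins and their ID inhibitors were followed in primary thymocytes of the rat, immature T lineage cells from the thymus, after culture with or without dexamethasone, a synthetic glucocorticoid that kills these cells by apoptosis. The genes were found by name on the array: the ID genes Id1, Id2, Id3 and Id4, and the E protein genes Tcf3 (named Tcfe2a on the array, the gene of E2A), Tcf4 (E2-2) and Tcf12 (HEB). These 7 genes were read by 12 of the 41012 probes, 9 for ID genes and 3 for E protein genes. All 12 accessions matched the rat RefSeq gene table, so that no member was missing from the array. RNA levels came from single-color Agilent Whole Rat Genome arrays, whose probes are oligonucleotides of 60 bases.

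Both groups were thymocytes of adrenalectomized male Sprague-Dawley rats, whose age was not given in the sources used here. Adrenalectomy removes the animals' main source of corticosteroids and was shared by Control and treated cells. Thymi of 3 animals were pooled for a preparation. Culture then lasted 6 hours, with no hormone for the 4 Control arrays and with dexamethasone at 100 nM for the 4 Dex arrays. Because the labels do not say that arrays of a group came from separate preparations, p-values measure only the spread between these arrays, which may be technical. The methods state 3 biological replicates, and all 8 deposited arrays were used. The arrays lay on 3 slides: Control 1 shared a slide with Dex 3, whereas Control 2, 3 and 4 lay on another and Dex 1, 2 and 4 on a further one. The scanner software flagged 24908 to 34472 probes of an array as well above background, and Dex 1 and Dex 2 had the lowest numbers.

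E proteins are basic helix-loop-helix transcription factors that bind E-box sequences as dimers, alone or with tissue-restricted partners. ID proteins have the helix-loop-helix, through which they dimerize, but lack the basic region that contacts DNA, so an E protein bound to an ID protein cannot bind its sites. In thymocytes, E2A and HEB maintain the genes of T cell receptor rearrangement and the pre-T cell receptor and restrain proliferation. Signals from the pre-T cell receptor and the T cell receptor induce Id3 through EGR factors, and Id2 is the prominent ID gene of innate lymphoid cells and natural killer cells.

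The probes of Id2 and Id3 are shown first, because several probes read each of these genes and the Id2 probes differed in size of change. The most 5′ Id2 probe (rn3 chr6:42786238-42786297, minus strand) lies in the coding sequence where the helix-loop-helix begins. The second Id2 probe spans chr6:42785674-42786023 on the same strand, which is longer than the probe, as for a probe that crosses an exon junction, and its capitals mark the stop codon.

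Id2 probe A_44_P170710: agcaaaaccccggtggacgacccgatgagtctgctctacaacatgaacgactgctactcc

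Id2 probe A_43_P11685: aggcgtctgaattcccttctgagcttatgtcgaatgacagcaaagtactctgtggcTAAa

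The 2 most 5′ Id3 probes also span more bases than they hold and lie at chr5:154944495-154944669 and chr5:154944512-154944686 of rn3 (plus strand). They share 43 bases, given in capitals, and are therefore not independent readings of the gene.

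Id3 probe A_44_P139744: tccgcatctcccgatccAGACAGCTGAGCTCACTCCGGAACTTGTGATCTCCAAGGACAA

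Id3 probe A_44_P276352: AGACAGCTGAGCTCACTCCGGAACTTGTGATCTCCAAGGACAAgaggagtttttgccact

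Dex arrays had lower mean signals than Control arrays for Id1, Id3, Tcf3, Tcf4 and Tcf12, and higher mean signals for Id2. By role, Id3 was 1.69-fold to 1.77-fold lower over its 3 probes, Tcf12 was 1.54-fold lower and Tcf4 1.42-fold lower, whereas the most 5′ Id2 probe was 1.66-fold higher. None of these differences passed limma's test at 0.05 after p-values were adjusted over all probes (Benjamini-Hochberg), the adjusted p of the 12 probes lying between 0.111 and 0.957. Over the whole array 319 probes passed, which is 0.778% of those tested. Without adjustment, 6 of the 12 probes were lower and 1 was higher at a p under 0.05, which covers 5 of the 7 genes. Over all probes the corresponding shares were 4.92% lower and 5.63% higher. Signals of the groups did not overlap for 7 of the 12 probes: every Dex array lay below every Control array for 6, against 4.50% of all probes, and above for 1, against 4.60%. The methods' signal to noise statistic, called at a nominal p of 0.01 and a fold change of 1.2, called 6 of the 12, 5 lower and 1 higher, against 6.79% of all probes. The median difference on the log2 scale was -0.76 over the ID probes and -0.51 over the E protein probes, and 0.00 over all probes. Probes of a gene are not independent, and the counts therefore weigh Id3 by 3 probes.

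**Figure D1:**
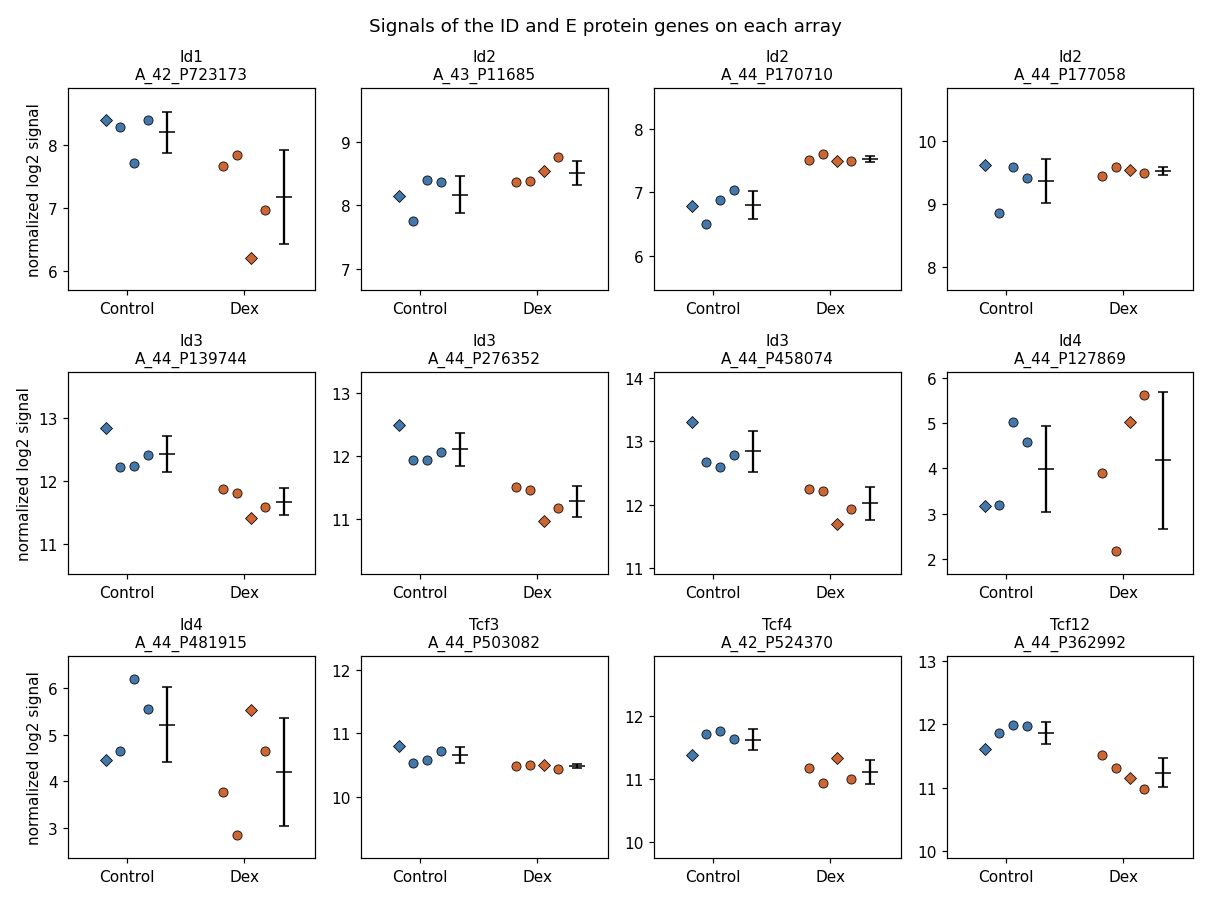
Normalized log2 signal of each ID and E protein probe on the 4 Control (blue) and 4 Dex (orange) arrays. Diamonds are the arrays of the slide that held both groups (Control 1 and Dex 3), circles the other arrays, and the black bars give the group mean ± SD. Groups are separate for the 3 Id3 probes, Id2 probe A_44_P170710, Tcf3, Tcf4 and Tcf12, and overlap for the others; axes differ between panels.

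Id3, the ID gene induced downstream of T cell receptor signals, was lower in Dex on each of its probes. Its probe A_44_P276352 read 12.49, 11.94, 11.93 and 12.06 on Control arrays 1 to 4 (normalized log2 signal, here and below) and 11.51, 11.46, 10.98 and 11.18 on Dex arrays 1 to 4. All Dex values thus lay below all Control values, with Control 1 the highest and Dex 3 the lowest array. Means were 12.11 ± 0.26 and 11.28 ± 0.25 (SD, n = 4), a log2 fold change of -0.82 (SE 0.20, 95% interval -1.28 to -0.36, limma adjusted p = 0.151).

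The overlapping probe A_44_P139744 read 12.84, 12.23, 12.24 and 12.41 on Control arrays and 11.88, 11.81, 11.42 and 11.60 on Dex arrays, in the same order of groups. Its log2 fold change was -0.76 (SE 0.20, limma adjusted p = 0.188). The third Id3 probe, A_44_P458074, lies 881 bases further 3′ (chr5:154945376-154945435) and shares no sequence with the other two. It read 13.31, 12.68, 12.60 and 12.78 on Control arrays and 12.25, 12.21, 11.69 and 11.93 on Dex arrays, again without overlap. The fold change was -0.82 (SE 0.22, 95% interval -1.33 to -0.32, limma adjusted p = 0.193).

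On the slide that held both groups the 3 Id3 probes were lower in Dex 3 than in Control 1 by log2 differences of -1.43, -1.50 and -1.63, larger than the means over all arrays. Without these 2 arrays, Id3 log2 fold changes were -0.53, -0.59 and -0.56. With normexp background correction, the 2 overlapping probes passed the test, at log2 fold changes of -0.75 and -0.82 (limma adjusted p = 0.0442 and 0.0447), and the third, at -0.77, did not. That setting called 2.23% of all probes. The size of the Id3 difference therefore moved with the shared slide, and its direction did not.

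Id1, an ID gene whose transcription is induced by BMP signals through SMAD factors, was read by 1 probe (chr3:142992779-142992838, plus strand). Its signals were 8.39, 8.28, 7.71 and 8.40 on Control arrays and 7.67, 7.83, 6.21 and 6.97 on Dex arrays. Dex 2 lay above Control 3, so the groups overlapped, and Dex 3 and Dex 4 were the low arrays. Means were 8.19 ± 0.32 and 7.17 ± 0.74 (SD, n = 4), and the log2 fold change was -1.02 (SE 0.37, 95% interval -1.87 to -0.17, limma adjusted p = 0.363). Dex 3 and Control 1 of the shared slide differed by -2.18 on the log2 scale, and the fold change was -0.64 without these 2 arrays. With normexp it was -0.66.

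Id2 was the ID gene whose mean was higher in Dex on all its probes. The most 5′ probe, A_44_P170710, read 6.79, 6.51, 6.87 and 7.03 on Control arrays and 7.52, 7.61, 7.49 and 7.50 on Dex arrays. Every Dex array lay above every Control array, and the Dex arrays were close to each other. Means were 6.80 ± 0.22 and 7.53 ± 0.05 (SD, n = 4), a log2 fold change of 0.73 (SE 0.16, 95% interval 0.36 to 1.09, limma adjusted p = 0.111). This difference was 0.70 within the shared slide and 0.74 without its arrays. It was 0.47 with normexp, where it passed the test (limma adjusted p = 0.0176).

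The other Id2 probes gave smaller differences. Probe A_43_P11685, whose 5′ end lies 274 bases downstream of the first, read 8.15, 7.76, 8.40 and 8.36 on Control arrays and 8.37, 8.38, 8.54 and 8.76 on Dex arrays. Its groups overlapped, and the log2 fold change was 0.35 (SE 0.20, 95% interval -0.10 to 0.80, limma adjusted p = 0.609). It was 0.21 without Control 2, the low array. Probe A_44_P177058, 2073 bases downstream (chr6:42784165-42784224), read 9.62, 8.86, 9.58 and 9.41 on Control arrays and 9.44, 9.59, 9.54 and 9.50 on Dex arrays. Apart from the low Control 2, all arrays of this probe lay close together, and the log2 fold change was 0.15 (SE 0.20, 95% interval -0.31 to 0.60, limma adjusted p = 0.850). Its direction turned without Control 2, to -0.022, and within the shared slide, to -0.086.

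Whether the Id2 probes differed in their response was tested within arrays, a comparison chosen after the values were seen. The most 5′ probe minus the most 3′ probe was -2.83 to -2.35 on the log2 scale over Control arrays and -2.05 to -1.92 over Dex arrays, a shift of 0.58. An exact two-sided permutation test gave p = 0.0286, the smallest that 4 against 4 arrays allow, and 0.171 after Benjamini-Hochberg adjustment over the 6 probe pairs of Id2 and Id3. With arrays paired by replicate number, the exact permutation p was 0.125, the smallest that 4 pairs allow. The other Id2 pairs shifted by 0.38 and 0.20 (exact permutation p = 0.0571 and 0.257), and the 3 Id3 pairs by 0.00 to 0.07 (exact permutation p from 0.0857 to 0.943). With so few arrays a single pair cannot pass after this adjustment, whatever its size, so the adjusted value does not settle whether the Id2 probes differed. For Id3 the probes gave close values along the gene.

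**Figure D2:**
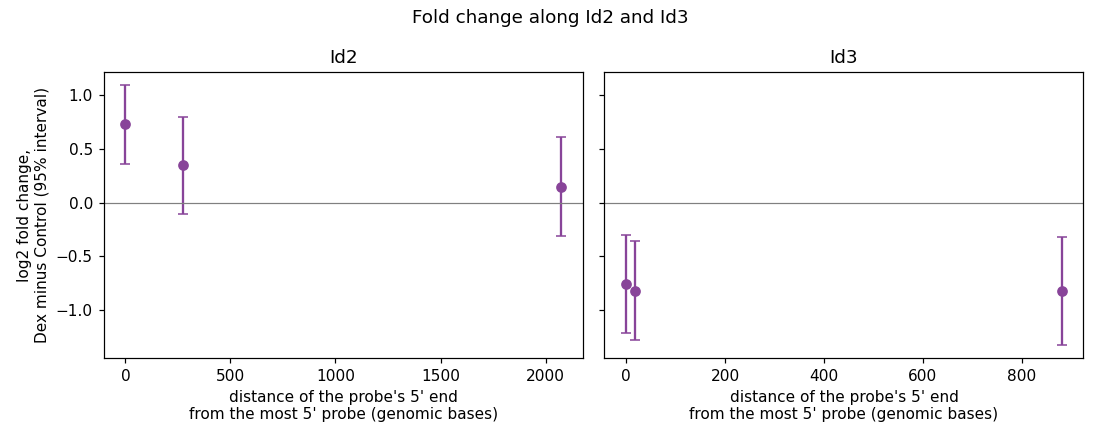
Log2 fold change (Dex minus Control, with limma 95% interval) of the 3 Id2 probes and the 3 Id3 probes against the distance of each probe's 5′ end from the most 5′ probe, in genomic bases. The Id2 values go from 0.73 at the first probe to 0.15 at 2073 bases, where the direction turned without Control 2 and within the shared slide. The Id3 values stay between -0.76 and -0.82 out to 881 bases.

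Id4 was not measured well enough to give a direction. Probe A_44_P127869 (chr17:22525981-22526040, minus strand) was well above background on 3 Control and 2 Dex arrays, with signals of 3.18, 3.20, 5.03 and 4.58 on Control arrays and 3.89, 2.18, 5.03 and 5.62 on Dex arrays. Probe A_44_P481915 (chr17:22525459-22525518) was above background on 4 Control and 2 Dex arrays, with signals of 4.46, 4.66, 6.19 and 5.56 against 3.77, 2.85, 5.53 and 4.65. In both groups, arrays 3 and 4 were the high arrays for both probes. Their log2 fold changes were 0.18 (95% interval -1.61 to 1.98) and -1.02 (95% interval -2.44 to 0.40), with limma adjusted p-values of 0.957 and 0.643. Each direction turned under at least 1 other processing, the second ranging from -1.72 to 1.07, and within the shared slide the values were 1.86 and 1.07.

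Among the E proteins, Tcf12, the gene of HEB, which pairs with E2A in thymocytes, had the largest difference. Its probe (chr8:76344309-76355833, minus strand, longer than the probe) read 11.61, 11.86, 11.99 and 11.97 on Control arrays and 11.52, 11.31, 11.15 and 10.98 on Dex arrays. The groups did not overlap, although Control 1 and Dex 1 were close. Means were 11.86 ± 0.17 and 11.24 ± 0.23 (SD, n = 4), a log2 fold change of -0.62 (SE 0.18, 95% interval -1.03 to -0.21, limma adjusted p = 0.227). The fold change was -0.47 within the shared slide and -0.67 without its arrays.

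Tcf4, the gene of E2-2, the E protein best known from plasmacytoid dendritic cells, was read by a probe at chr18:66433127-66433185 (plus strand). Its signals were 11.38, 11.72, 11.75 and 11.62 on Control arrays and 11.18, 10.94, 11.34 and 10.99 on Dex arrays. The groups did not overlap, with Control 1 the lowest Control array and Dex 3 the highest Dex array. Means of 11.62 ± 0.17 and 11.11 ± 0.18 (SD, n = 4) gave a log2 fold change of -0.51 (SE 0.17, 95% interval -0.89 to -0.13, limma adjusted p = 0.303). Dex 3 and Control 1, the arrays of the shared slide, differed by only -0.043, and the difference was -0.66 without them. The summed signal of the dendritic cell markers, plasmacytoid ones included, ranged from 4890 to 10800 on Control arrays and from 4840 to 12000 on Dex arrays, with 3 of 8 genes higher and 5 lower. Cd74, RT1-Db1 and RT1-Da were the brightest of these markers (Control means 11.65, 10.80 and 10.69), against 6.85 for Bst2 and 5.29 for Flt3. The sum therefore says little about plasmacytoid cells. At an unadjusted p under 0.05, 1 marker was lower and 0 were higher. It was Cd83, named after its value was seen, at -0.74 without overlap (limma adjusted p = 0.242). The part of dendritic cells in the Tcf4 signal was not tested.

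Tcf3, the gene of E2A, had the smallest difference among members measured on all arrays with groups that did not overlap. Its probe spans chr7:10809582-10812995 (plus strand) and read 10.81, 10.54, 10.58 and 10.72 on Control arrays and 10.49, 10.51, 10.50 and 10.44 on Dex arrays. All Dex values lay below all Control values, but the lowest Control and the highest Dex array were close. The log2 fold change was -0.18 (SE 0.14, 95% interval -0.49 to 0.14, limma adjusted p = 0.722), and the signal to noise statistic did not call it. It was -0.089 with median scaling and -0.30 within the shared slide. The interval leaves room for a log2 fold change as low as -0.49, and thus does not show that Tcf3 was unaltered.

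**Figure D3:**
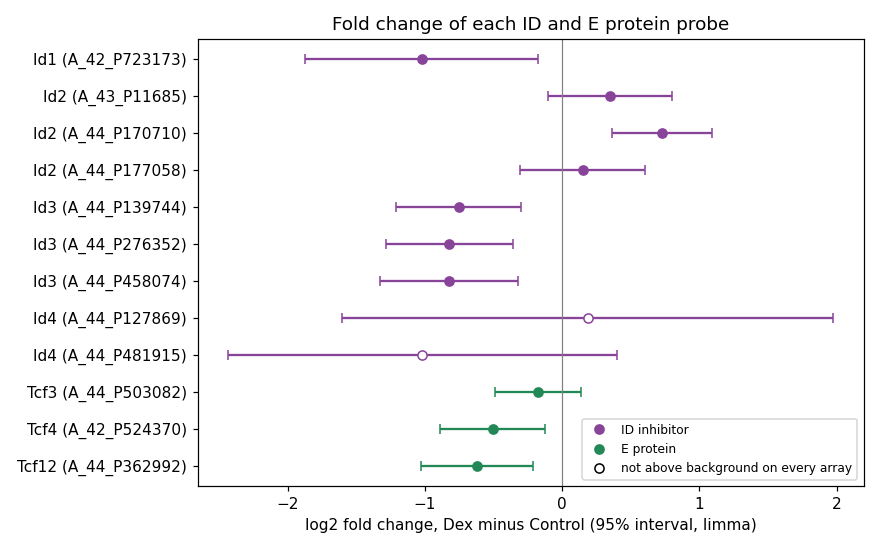
Log2 fold change (Dex minus Control, limma, with 95% interval) of each ID (purple) and E protein (green) probe. Open circles are the Id4 probes, which were not above background on every array. Intervals lie wholly below 0 for Id1, the 3 Id3 probes, Tcf4 and Tcf12 and wholly above 0 for the most 5′ Id2 probe; none of the 12 passed the test adjusted over all probes, and the direction of Id4 and of Id2 probe A_44_P177058 turned under other processing.

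For the arrays of the other slides, slide and treatment cannot be told apart. The slide with both groups held 1 array of each, which gives a value and no test. With the slide as a fixed block no member passed, and with the slide as a random block 4 of the 12 probes passed: Id2 probe A_44_P170710 (log2 fold change 0.73, limma adjusted p = 0.0146), Id3 probe A_44_P276352 (-0.71, adjusted p = 0.0404), Tcf4 (-0.59, adjusted p = 0.0399) and Tcf12 (-0.65, adjusted p = 0.0387). The correlation estimated for that fit was negative, -0.235, and the fit called 1838 probes of the array, 4.48% of those tested, against 0.778% as reported. With any single array left out, no member probe passed. The direction of Id1, Id3, Tcf3, Tcf4, Tcf12 and of the 2 more 5′ Id2 probes was the same in every alternative run. Part of this agreement was fixed in advance. Leaving out dim probes, the replicate block and trend and robust estimation do not alter the fold change of these probes. The deposited table and the kept outlier spots gave the same values as each other.

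**Figure D4:**
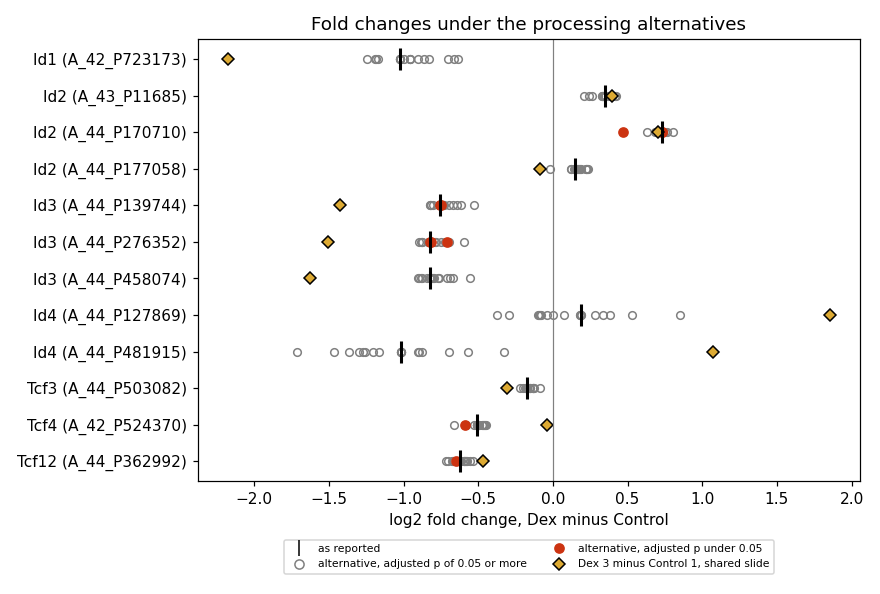
Log2 fold change (Dex minus Control) of each probe as reported (black bar), under the processing alternatives (circles, red where the limma adjusted p was under 0.05) and within the shared slide as Dex 3 minus Control 1 (diamonds). Values of Id4, and of Id2 probe A_44_P177058, fall on both sides of 0; those of the other probes keep to 1 side, and the Id1 and Id3 differences are largest within the shared slide.

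The samples hold whole thymocyte suspensions, and in such bulk RNA fewer cells of a type and less RNA per cell cannot be told apart. The label of the cells was borne out: all 14 thymocyte markers measured, among them Cd3e, Cd4, Cd8a, Rag1 and Ptcra, were well above background on all 8 arrays. Their summed signal was 365000 to 441000 on Control arrays and 352000 to 452000 on Dex arrays. Cd8b, among the brightest of these markers (Control mean 15.95), had no value on Control 1. The sum of that array therefore lacks it, and the Control range is not comparable with the Dex range. By gene, 3 were higher and 11 lower, with a median log2 fold change of -0.19. At an unadjusted p under 0.05, 1 was higher and 4 were lower. Among the 4 were Lck, the proximal kinase of the T cell receptor, at -0.68 (limma adjusted p = 0.112), and Cd5, a brake on that receptor, at -0.70 (limma adjusted p = 0.197), both without overlap and named after their values were seen. Natural killer and innate lymphoid markers, cells known for Id2, summed to 3360 to 3820 on Control arrays and 2510 to 5020 on Dex arrays, with 3 of 10 genes higher, 7 lower and 2 above background on every array. Macrophage markers summed to 4470 to 6180 on Control and 4300 to 8780 on Dex arrays (6 of 10 higher), and 2 of them, the complement genes C1qb at 0.84 (limma adjusted p = 0.330) and C1qc at 0.97 (limma adjusted p = 0.327), were higher at an unadjusted p under 0.05. B cell markers summed to 555 to 787 and 511 to 659 (2 of 6 higher). Stromal markers summed to 3820 to 5350 on Control and 4760 to 6590 on Dex arrays, and 10 of 11 were higher in mean, with a median log2 fold change of 0.53, 7 of the 11 being above background on every array and 2 reaching an unadjusted p under 0.05. Of these 2, both named here after their values were seen, the adhesion molecule gene Pecam1 passed the test (1.36, SE 0.19, limma adjusted p = 0.0208). Pdgfrb was higher without overlap and did not pass (1.72, SE 0.43, limma adjusted p = 0.160), and was above background on 5 arrays. The fibroblast gene Dcn was above background on 0 arrays. The B cell gene Ms4a1 was above background on 2 arrays and the natural killer gene Ncr1 on 6. Erythroid markers summed to 304 to 1380 and 343 to 2350 (3 of 3 higher). At an unadjusted p under 0.05, 1 dendritic cell marker was lower, and 0 of the B cell, natural killer and erythroid markers differed. The sums add unlogged signals, so they follow the brightest genes of a list and are not counts of cells. In Control, Prf1 (mean 11.02) and Nkg7 (10.45) were the brightest natural killer markers. Lyz (11.92) was the brightest macrophage marker and Krt18 (11.89) the brightest stromal marker. Nkg7 alone read 8.89 on Dex 2 and 11.80 on Dex 4. The part of any of these cell types in the ID and E protein signals was not tested.

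Genes around the E proteins were taken from 3 lists. Of the E protein partners and cofactors, 16 of 18 were on the array, and none passed the test, 8 being higher and 8 lower, with a median log2 fold change of 0.05. At an unadjusted p under 0.05, 1 was higher and 3 were lower. Cbfa2t3, a corepressor of the ETO family that binds E proteins, had the largest difference of the list, from 10.51 ± 0.35 in Control to 9.31 ± 0.40 in Dex (SD, n = 4), without overlap. Its log2 fold change was -1.21 (SE 0.26, limma adjusted p = 0.110). Cbfa2t2 of the same family was at -0.78 (limma adjusted p = 0.393), with overlapping groups, and was at 0.30 within the shared slide and -0.52 with normexp. Gata3, a factor of T cell commitment, was at -0.57 without overlap (limma adjusted p = 0.351) and at -0.23 within the shared slide. Ascl2 was at 0.40 (limma adjusted p = 0.553) and at 0.22 with normexp.

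All 17 genes of the list of ID gene inducers were on the array. It holds BMP and SMAD genes, Tgfb1 and the EGR factors, and also Smad6 and Smad7, which inhibit BMP signals, so that its counts mix inducers with inhibitors. None passed the test, 6 were higher and 11 lower, and the median log2 fold change was -0.08. At an unadjusted p under 0.05, 1 was lower and 0 were higher. Egr1, an immediate early factor that induces Id3 on T cell receptor signals, read 9.06, 8.41, 9.00 and 8.96 on Control arrays and 8.58, 8.67, 7.57 and 7.48 on Dex arrays. Dex 3 and Dex 4 were its low arrays, as they were among the Dex arrays for Id1 and Id3. These 2 arrays also had the lowest 75th percentile of the signal before normalization (266 and 264, against 318 to 428 on the other arrays). Of the 14 thymocyte markers measured, 7 were lower on both of them than on Dex 1 and Dex 2, 2 were higher and 5 were mixed. The other marker lists split both ways. Of the natural killer and innate lymphoid markers 5 were lower, 5 higher and 0 mixed. Of the macrophage markers 4 were lower, 3 higher and 3 mixed, and of the dendritic cell markers 2, 3 and 3 in that order. The part of these array differences in the Egr1, Id1 and Id3 values was not tested. For Egr1 the log2 fold change was -0.78 (SE 0.33, limma adjusted p = 0.449), or -1.49 within the shared slide. Egr2 was at -0.76 (limma adjusted p = 0.747), with -0.13 under normexp, -2.14 within the shared slide, -0.30 without its arrays, -1.16 without Dex 2, -0.42 without Dex 3 and -0.33 without Dex 4. The BMP receptor gene Bmpr2 was at -0.72 (limma adjusted p = 0.579), with -0.12 under normexp, -1.73 within the shared slide and -0.39 without its arrays, and the inhibitory SMAD gene Smad7 at -0.30 without overlap (limma adjusted p = 0.606), or -0.023 within the shared slide.

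Of the 16 listed targets of E proteins in thymocytes, 14 were on the array, 8 higher and 6 lower, with a median log2 fold change of 0.10. The list mixes genes that E proteins maintain, such as Ptcra and Rag1, with genes that they restrain, such as Cdk6. Its counts and median therefore give no direction of E protein activity. Both of the targets that passed the test rose, and none fell. Cdk6, a kinase of cell cycle entry that E proteins restrain, read 7.54, 7.50, 7.31 and 7.31 on Control arrays and 9.06, 9.41, 8.42 and 8.92 on Dex arrays. It rose by a log2 fold change of 1.54 (SE 0.22, limma adjusted p = 0.0261). Il7r, the interleukin 7 receptor gene, read 5.08, 4.90, 5.06 and 5.18 on Control and 7.20, 7.08, 6.21 and 6.22 on Dex arrays. It rose by 1.62 (SE 0.27, limma adjusted p = 0.0410). Both calls were lost with the replicate number as a block (limma adjusted p = 0.0924 for Cdk6 and 0.160 for Il7r), with median scaling, with the slide as a fixed block, without the shared slide, and when any single array other than Dex 3 was left out, and that of Cdk6 also with the 75th percentile. Within the shared slide Cdk6 was at 0.88 and Il7r at 1.14, and with normexp Il7r was at 0.75.

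Of the other listed targets, Bcl11b, a factor of T cell commitment, was at 11.94 ± 0.13 in Control and 11.07 ± 0.16 in Dex (SD, n = 4), without overlap and just short of the threshold (log2 fold change -0.87, SE 0.15, limma adjusted p = 0.0546). Ptcra, which encodes the pre-T cell receptor alpha chain, was at 12.22 ± 0.16 and 11.61 ± 0.10, also without overlap (-0.61, SE 0.15, limma adjusted p = 0.154). Rag1, of the recombinase, was at -0.59 (limma adjusted p = 0.436) and at -1.07 within the shared slide, and the chemokine receptor gene Cxcr4 at 0.48 (limma adjusted p = 0.223). At an unadjusted p under 0.05, 4 of the 14 targets were higher and 3 were lower.

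**Figure D5:**
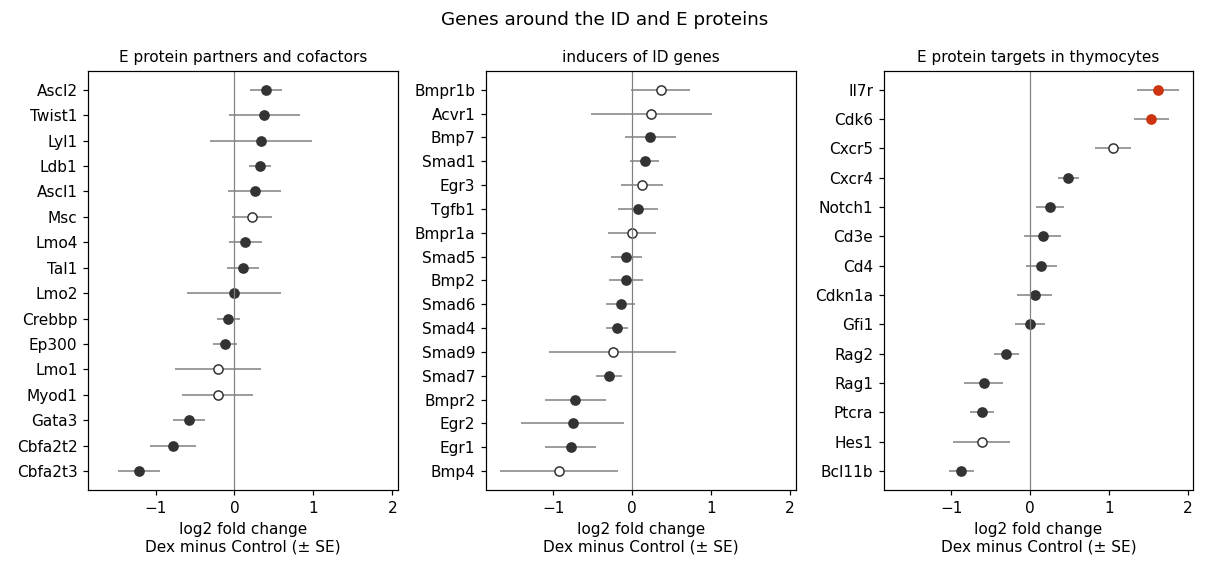
Log2 fold change (Dex minus Control ± SE) of the genes of 3 lists around the ID and E proteins, each read by its brightest probe. Filled circles were well above background on all 8 arrays, open circles were not, and red marks an adjusted p under 0.05, which 2 targets reached (Cdk6 at 1.54 and Il7r at 1.62).

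The genes whose signal over the 8 arrays was most like that of each member were named from 6137 probes with a symbol and above background on all arrays. These correlations hold the difference between groups and between slides and are a description over 8 arrays. Id3 was closest to Emp3 (Pearson r = 0.985), Ltb (0.984), the lymphotoxin beta gene, and Bin1 (0.982), and Id1 to Ube2f (0.990), Tfeb (0.985) and Flot1 (0.983). Id2, by its brightest and most 3′ probe, had no equally close gene, with Cytip at 0.880, the stress factor gene Atf4 at 0.863 and H2ac25 at 0.846. Tcf12 was closest to C2cd2l (0.980), Gtf2ird1 (0.973) and Paqr5 (0.968), and Tcf4 to Impact (0.981), Twf1 (0.964) and Whrn (0.963). Tcf3 was closest to Myl12b (0.961), Dpy30 (0.928) and Zc3h18 (0.926). No member of the family was among the named neighbours of another.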

How the data were processed

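The authors hybridized Cy3-labeled RNA, and the deposited intensity of a spot is the background-subtracted output of Feature Extraction (version 9.5.3.1). A deposited log2 table holds the same arrays after quantile normalization and median polish. The deposited software flags, 0 or 1, mark spots above background, saturated spots and outliers. These steps were recomputed from the intensities without outlier spots and correlated with the deposited log2 values at 0.999999 or more on each array. No spot of a member probe was saturated. Probe positions refer to rn3, per the file headers. The series table had no column without a sample.

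Control and Dex were compared with limma (version 3.58.1, R version 4.3.3; lmFit, eBayes, two-sided, no block) over all 41012 probes, with Benjamini-Hochberg adjustment at 0.05. The signal to noise statistic was set against its values of all probes, pooled over all 70 assignments of the arrays. Its p is that of the smaller tail, and thus one-sided. A listed gene was read by its brightest probe. Named genes were all member probes, listed genes that passed, up to 4 others per list with the largest difference and signal above background on 8 arrays, and the 3 closest genes per member. With 4 arrays per group, precision is limited by their number. Members, lists and tests were chosen with earlier results of these data known. Within equal replicate numbers, deviations from the group means correlated at 0.397, 0.129, 0.550 and 0.184, and the numbers were taken to pair the arrays. Unequal numbers reached similar values in part: 0.401 (Control 1, Dex 2), 0.188 (Control 2, Dex 1) and 0.392 (Control 3, Dex 4). Alternatives varied background, scaling, filters, blocks, weights, test and arrays; an added one left out both arrays of the shared slide.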

Additional observations from a re-analysis of the deposited data

How the results depend on the processing

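Among the member probes, 0 passed in the fit as reported, under the 75th percentile or median scaling, the deposited table, outlier spots kept, a fixed slide block, array weights, without the shared slide, or with any single array left out (0 to 0). The signal to noise statistic called 6, normexp 3, the random slide block 4, trend and robust estimation 2, and leaving out dim probes 1. Over all probes, 319 passed (231 higher, 88 lower). That count was 915 with normexp (497 higher, 418 lower), 166 with the 75th percentile (133 higher, 33 lower), 13 with median scaling (12 higher, 1 lower), 562 without dim probes, 1 with the fixed and 1838 with the random slide block, 765 with trend and robust estimation, 56 without the shared slide, 2784 by signal to noise, and 96 to 249 with an array left out. Among the listed pathway genes, 2 passed as reported, against 5, 1, 0, 0, 7, 6, 0 and 8 with normexp, the 75th percentile, median scaling, the fixed and the random slide block, trend and robust estimation, no shared slide and signal to noise, in that order, and 0 to 2 with an array left out. Scaling moved the median of all probes by at most -0.04 on the log2 scale.

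With the replicate number as a block, that is with the arrays paired by number, 0 member probes, 81 of all probes (75 higher, 6 lower) and 0 pathway genes passed. The block changed no call of a member.

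Directions turned for Id2 probe A_44_P177058 (0.15 as reported), to -0.086 with the fixed slide block and -0.022 without Control 2 (-0.022 to 0.23 with an array left out). For Id4 probe A_44_P127869 (0.18) they turned to -0.042 with the 75th percentile, -0.094 with the random slide block, -0.37 without the shared slide, and to values down to -0.30 without Control 1, Control 2, Dex 3 or Dex 4 (-0.30 to 0.85 with an array left out). Id4 probe A_44_P481915 (-1.02) turned to 1.07, and Cbfa2t2 (-0.78) to 0.30, with the fixed slide block. The shift between the outer Id2 probes was 0.54 with 75th percentile or median scaling (exact permutation p = 0.0857), while that between the 2 more 5′ Id2 probes was 0.39 there and 0.47 without Dex 4 (exact permutation p = 0.0286 in each, against 0.0571). Of the tested alternative values of member probes, 219 kept direction and side of the threshold, 10 turned, and 10 came to pass it. The 219 include settings that cannot alter the fold change, so this count overstates the agreement. The turns of Id2 probe A_44_P177058 and Id4 probe A_44_P481915 within the shared slide are the same as those with the fixed slide block. Both values equal Dex 3 minus Control 1, which gives values and no test. The cause was not tested. Signal over background limits Id4, and the fixed slide block leaves 1 array of each group to compare. The values without the shared slide and the tests between Id2 probes were chosen after seeing the data.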
